A study of Mus musculus with 18 samples.

Results

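Short intronic MDA5-protected peaks are stretches of liver RNA under 500 nt that survived RNase digestion in the presence of MDA5ΔCARD and that lie between the exons of a protein-coding gene. A peak was counted when, on its own strand, it lay inside the body of a protein-coding gene of GENCODE M21 and touched no annotated exon. The peaks were thus selected on measured values, namely on having been called in an MDA5-protected library and on their length, so their presence and length are given as a description and are not tested. Of 11501 MDA5-protected peaks in 6 libraries, 5292 (46.0%) met the rule, out of 82353 peaks in all 18 libraries. Overlapping peaks of different libraries on the same strand were merged into 2528 regions, which lie in 1069 host genes. The livers came from mice of 8 to 9 days. One genotype was editing-deficient (Adar-/-; Mavs-/-) and the other was Mavs-/-, which still has ADAR1, so the adaptor MAVS was absent from both. Sample titles call the second genotype wild-type, whereas its genotype label and the study give Mavs-/-. Each genotype had 3 replicates of RNA digested after incubation with MDA5ΔCARD (MDA5-protected), of RNA digested without the protein (RNase-only), and of undigested total RNA (input). MDA5ΔCARD is recombinant MDA5 without its signalling domains and was added to purified RNA in a tube, so the assay does not report which RNA meets MDA5 in a cell.

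MDA5 is a cytosolic sensor that assembles into filaments along double-stranded RNA and signals through MAVS to induce interferon. ADAR1 deaminates adenosine to inosine in double-stranded RNA, which disrupts base pairing, and without ADAR1 the cell's own duplexes can set off this response. Introns carry many copies of repeat elements, and neighbouring copies in opposite orientation can fold back on each other. Total RNA contains unspliced precursors and excised introns as well as mature mRNA, and these are mostly nuclear.

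The libraries first had to be checked against their labels. All 8 liver markers examined, among them Alb and Apoa1, had exonic peaks in all 6 input libraries, whereas 7 of 12 markers of other cell types, among them Ptprc of leukocytes and Pecam1 of endothelium, had none. Of the other 5, Lyz2, Hba-a1 and Hbb-bs had exonic peaks in 6 inputs and Cd74 and Col1a1 in 5. Neither Adar nor Mavs hosted a short intronic region. Adar had an input peak in exon 2 of its longest transcript in editing-deficient replicates 2 and 3 and in no Mavs-/- library, and Mavs had no exonic peak in any library. The exons that the Adar allele lacks are not given in the sources used here, and a deleted gene can still be transcribed outside them, so these peaks check no label. The RNase-only library of editing-deficient replicate 1 stood apart from the other 5. It held 720 short intronic peaks, against 1885 and 1956 in the other replicates of its genotype, and 58.1% of them faced a peak on the opposite strand, against 5.07% to 14.4% in the other RNase-only libraries. Genotype and fraction comparisons that rest on it are given with and without it. Read counts are not part of the lists, which leaves the depth of each peak unknown, and the area of a peak (the summed significance along it) grows with depth and was ranked only within a library. In bulk liver RNA, fewer cells carrying a transcript and less of it per cell cannot be told apart.

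The base sequence could be read for a few regions only, those that lie in a promoter window of RefSeq (GRCm38.p6) or face an annotated noncoding exon, 20 of the 2528. Shown are 3 regions found in at least 4 libraries, the region in Foxa1, which encodes a transcription factor of liver development, and the 1 region found in all editing-deficient and no Mavs-/- libraries. They were chosen after their values were seen. Each is written 5′ to 3′ on the strand of the peak, with CG dinucleotides in capitals. Bases outside the promoter window or noncoding exon could not be read. For Prkar1a 127 bases of a region of 271 nt are therefore shown, and for Acot12 181 of 183.

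Prkar1a chr11:109651215-109651341 (+ strand): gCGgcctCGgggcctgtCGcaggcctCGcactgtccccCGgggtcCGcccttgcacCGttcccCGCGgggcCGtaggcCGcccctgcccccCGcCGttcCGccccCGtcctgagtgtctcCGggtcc

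Scn8a chr15:100870540-100870644 (+ strand): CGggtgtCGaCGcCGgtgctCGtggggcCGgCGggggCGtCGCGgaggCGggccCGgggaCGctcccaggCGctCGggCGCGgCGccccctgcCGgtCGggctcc

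Zbtb14 chr17:69383627-69383771 (+ strand): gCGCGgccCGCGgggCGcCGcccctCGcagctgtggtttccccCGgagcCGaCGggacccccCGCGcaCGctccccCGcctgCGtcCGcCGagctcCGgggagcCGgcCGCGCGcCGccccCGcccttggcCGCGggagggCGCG

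Foxa1 chr12:57546128-57546230 (- strand): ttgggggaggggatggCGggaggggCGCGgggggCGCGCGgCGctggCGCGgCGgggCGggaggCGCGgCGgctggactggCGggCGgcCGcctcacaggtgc

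Acot12 chr13:91744824-91745004 (+ strand): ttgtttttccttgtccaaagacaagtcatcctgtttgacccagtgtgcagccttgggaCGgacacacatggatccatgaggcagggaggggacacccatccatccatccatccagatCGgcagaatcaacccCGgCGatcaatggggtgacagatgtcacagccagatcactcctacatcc

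Of these, 4 were GC-rich stretches before a transcript start of RefSeq. G and C made up 79.5% of the 127 bases in Prkar1a, which encodes a regulatory subunit of protein kinase A, 85.7% of the 105 bases in Scn8a, a sodium channel gene, 86.2% of the 145 bases in Zbtb14, a zinc finger gene, and 85.4% of the 103 bases in Foxa1. The median over all 32851 RefSeq promoter windows of 300 bases was 52.7%. Per 100 bases they held 12.6, 19.0, 19.3 and 16.5 CG dinucleotides, in that order, against a median of 2.33 over the windows. Because the sequence could be read mainly near gene starts, these regions do not stand for the whole set. Prkar1a was protected in 6 libraries, Scn8a in 2 of each genotype, Zbtb14 in 3 Mavs-/- libraries and 1 editing-deficient library, and Foxa1 in 1 library of each genotype. Digestion without MDA5ΔCARD also left a peak at the Prkar1a region in 1 editing-deficient and 3 Mavs-/- libraries. At the Scn8a region it did so in 2 and 3, and at the Zbtb14 and Foxa1 regions in none. These 4 regions lay close to an exon on their strand, at 141 nt in Prkar1a, 0 nt in Scn8a, 68 nt in Zbtb14 and 6 nt in Foxa1. The median distance over all regions was 4445 nt. The region in Acot12, which encodes an acetyl-CoA hydrolase of liver, differed. It was 53.6% GC with 4 CG dinucleotides in 181 bases, lay 3163 nt from the nearest exon on its strand, and ran antisense to Gm24597, a noncoding RNA gene inside intron 1 of Acot12. It was protected in all 3 editing-deficient libraries, with areas of 601, 766 and 879, and it had no peak in the Mavs-/- MDA5-protected, RNase-only or input libraries.

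Short intronic peaks made up a larger part of each MDA5-protected list than of the RNase-only list with the same genotype and number, in 6 of 6 cases. In editing-deficient replicates 1 to 3 the MDA5-protected libraries held 840, 1390 and 1397 of them, which is 51.3%, 50.2% and 48.7% of their peaks. In Mavs-/- replicates 1 to 3 they held 844, 438 and 383, which is 46.1%, 35.9% and 32.5%. The counts of both genotypes overlapped, because Mavs-/- replicate 1 exceeded editing-deficient replicate 1, whereas the shares did not overlap. The mean count was 1209 ± 320 (SD, n = 3) in editing-deficient and 555 ± 252 (SD, n = 3) in Mavs-/- libraries (p = 0.2 by a two-sided exact permutation test, 0.3 after Benjamini-Hochberg adjustment over 9 comparisons of the genotypes). The mean share was 50.1 ± 1.32% against 38.2 ± 7.12% (exact permutation p = 0.1, adjusted 0.18), and 0.1 is the smallest p that 3 libraries against 3 can give. When every list was cut to the same number of its strongest peaks, the shares overlapped. The difference was then 9.29 points (exact permutation p = 0.2). In the RNase-only libraries the same kind of peak made up 12.4%, 30.9% and 34.9% of the editing-deficient and 27.2%, 23.7% and 21.8% of the Mavs-/- lists, and in the inputs 1.16% to 2.18%.

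**Figure D1:**
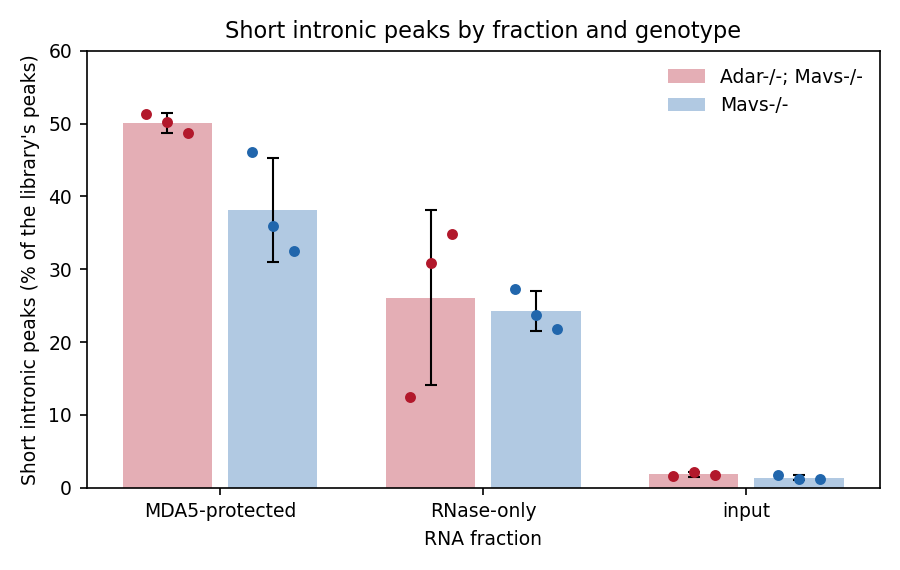
Short intronic peaks as a percentage of all peaks of a library (y axis) in the 3 RNA fractions (x axis), with 1 point per library, bars at the mean and error bars of 1 SD over 3 replicates of editing-deficient (Adar-/-; Mavs-/-, red) and Mavs-/- mice (blue). The MDA5-protected libraries run from 32.5% to 51.3% and the inputs stay below 2.2%, and the low red point in the RNase-only fraction, at 12.4%, is editing-deficient replicate 1.

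Host genes followed the same order. The editing-deficient libraries had short intronic peaks in 479, 685 and 698 genes and the Mavs-/- libraries in 403, 220 and 241, without overlap (621 ± 123 against 288 ± 100, SD, n = 3, exact permutation p = 0.1, adjusted 0.18). The number of peaks per host gene was alike in range, at 1.75, 2.03 and 2.00 in editing-deficient and 2.09, 1.99 and 1.59 in Mavs-/- libraries (difference 0.0366, exact permutation p = 0.8). Median lengths were 223, 226 and 221 nt in editing-deficient and 245.5, 239 and 225 nt in Mavs-/- replicates 1 to 3. Peaks under 100 nt made up 6.31%, 7.84% and 9.09% of the editing-deficient members and 7.35%, 18.9% and 19.1% of the Mavs-/- members. The longest members of the libraries measured 496 to 498 nt, and the shortest intronic peaks beyond the limit measured 500 to 504 nt. There were 515 such longer intronic peaks, so the limit separates the bulk of intronic peaks from a small tail.

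A large part of the short intronic peaks was also found where RNA had been digested without MDA5ΔCARD. Of the members of editing-deficient replicates 1 to 3, 12.1%, 48.0% and 49.9% overlapped a peak of the RNase-only library with the same genotype and number, and of the Mavs-/- members 50.6%, 56.4% and 45.4%. The low value belongs to the RNase-only library that stood apart. That library overlapped 4.15% to 12.1% of the members of any MDA5-protected library, whereas the other editing-deficient RNase-only libraries overlapped 39.2% to 58.7% and the Mavs-/- ones 16.2% to 56.4%. The mean overlap was 36.7 ± 21.3% in editing-deficient and 50.8 ± 5.48% in Mavs-/- libraries (SD, n = 3, exact permutation p = 0.4, adjusted 0.514), and the difference of -14.1 percentage points shrank to -1.87 without editing-deficient replicate 1. When any replicate of the genotype counted, the overlap was 61.4%, 55.9% and 53.8% against 55.2%, 67.1% and 64.8%, and the genotypes overlapped.

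**Figure D2:**
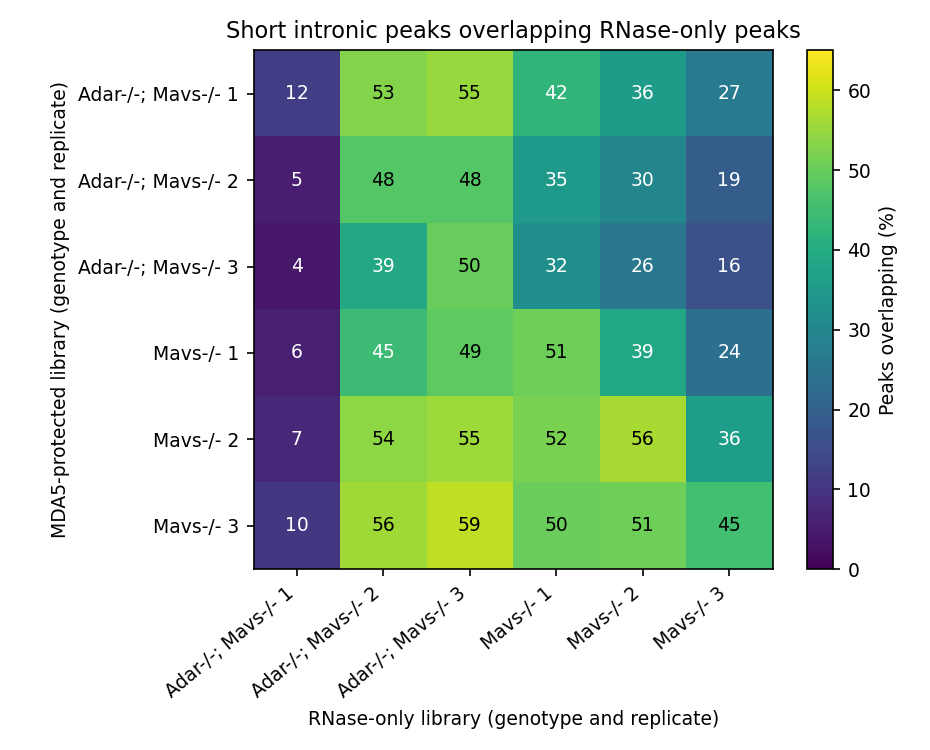
Percentage of the short intronic peaks of each MDA5-protected library (rows, genotype and replicate) that overlap a peak of each RNase-only library (columns) on the same strand, printed in each cell and coloured from 0 to 65%. The column of editing-deficient (Adar-/-; Mavs-/-) replicate 1 holds values of 12.1% and less, below every other column.

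Intronic peaks of at least 500 nt overlapped RNase-only peaks more often than the short ones of the same library. In editing-deficient replicates 1 to 3 the longer peaks overlapped in 17.1%, 72.2% and 81.3%, and in the Mavs-/- replicates in 78.4%, 81.8% and 74.2%. The short peaks were lower in 6 of 6 libraries, with a mean difference of -23.7 ± 9.55 percentage points (SD over 6 libraries, exact sign-flip permutation p = 0.03125, the smallest that 6 pairs can give, and 0.03125 after adjustment over 4 comparisons within libraries). A longer peak has more bases that can overlap. When the middle base of the peak had to lie inside an RNase-only peak, the difference was -4.26 points (exact permutation p = 0.219), and among peaks with an area of at least 1000 it was -9.86 (exact permutation p = 0.0938). Without editing-deficient replicate 1 it was -27.5 (exact permutation p = 0.0625, the smallest that 5 pairs can give).

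Over the merged regions, 50.4% overlapped an RNase-only peak of an editing-deficient library, 38.9% one of a Mavs-/- library, and 1135 of 2528 (44.9%) none at all. Regions seen in more libraries more often had an RNase-only counterpart, and 55.9% of the regions of 1 library had none, against 34.2% of those of 2 to 5 libraries and 23.3% of those of 6. The regions of the editing-deficient genotype alone lacked an RNase-only peak in 53.0%, those of Mavs-/- alone in 46.2% and those of both genotypes in 29.4%. These groups differed in length, and a longer region has more bases that can overlap. Median lengths were 223.5, 302 and 281 nt by number of libraries, and 233, 240 and 330 nt by genotype, in the same orders. The part of length in these shares was not tested. Leaving out the RNase-only library of editing-deficient replicate 1 changed little, with 50.3% overlapping an editing-deficient RNase-only peak and 1137 regions overlapping none. Input peaks were rare at these regions, since total RNA gave a peak at 54 of them (2.14%). By library, 0.952%, 0.504% and 0.573% of the editing-deficient members and 1.18%, 1.37% and 2.87% of the Mavs-/- members overlapped an input peak, without overlap of the genotypes (exact permutation p = 0.1, adjusted 0.18). The difference of -1.13 points was -0.601 without Mavs-/- replicate 3, and among peaks with an area of at least 1000 it was -0.745 (exact permutation p = 0.8).

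The short intronic peaks lay along the whole gene, with a shift toward the gene start relative to RNase-only peaks of the same kind. Position is the middle of the peak as a percentage of the gene's length from its start. The median position of the members was 46.1%, 43.2% and 43.6% in editing-deficient and 41.5%, 37.3% and 37.0% in Mavs-/- replicates 1 to 3, and that of the short intronic RNase-only peaks was 51.0%, 47.1% and 46.8%, and 44.2%, 45.4% and 40.6%. The members lay closer to the start in 6 of 6 pairs of libraries, with a mean difference of -4.42 ± 1.94 points (SD over 6 pairs, exact sign-flip permutation p = 0.03125, adjusted 0.03125). The pairs share genotype and replicate number, but no source used here says that same-numbered fractions came from 1 liver. Without the pairing the difference missed the threshold (exact permutation p = 0.0606). Without editing-deficient replicate 1 it was -4.31, and 5 pairs cannot give a p under 0.0625.

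First introns held more of the members than of the RNase-only peaks. They held 26.8%, 28.6% and 26.2% of the editing-deficient and 29.9%, 33.3% and 35.6% of the Mavs-/- members, taking introns from the longest transcript of each gene. Of the RNase-only peaks they held 23.7%, 22.7% and 22.5%, and 24.4%, 22.7% and 29.3%. The members were higher in 6 of 6 pairs, by 5.83 ± 2.62 points (exact sign-flip permutation p = 0.03125, adjusted 0.03125, and 0.013 without pairing), and by 6.38 in the 5 pairs without editing-deficient replicate 1. First introns made up 23.3% of the summed intron length of the host genes and 27.3% of that of all protein-coding genes with an intron.

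**Figure D3:**
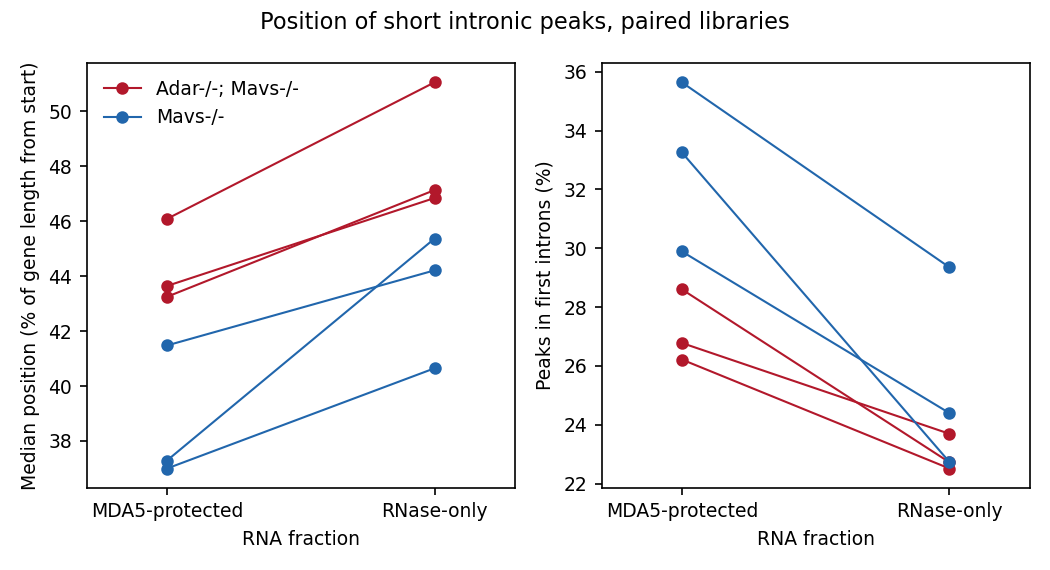
Median position of short intronic peaks in percent of gene length from the start (left) and percentage of them in first introns (right), for the MDA5-protected and RNase-only library of each genotype and replicate number, joined by lines. Every line rises on the left and falls on the right, and the blue Mavs-/- libraries lie below the red editing-deficient ones on the left and above them on the right in the MDA5-protected fraction.

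The genotypes did not overlap in either measure. The editing-deficient members lay 5.73 points farther along the gene (44.3 ± 1.53 against 38.6 ± 2.50, SD, n = 3) and 5.73 points fewer of them were in first introns (27.2 ± 1.25 against 32.9 ± 2.89), each with an exact permutation p of 0.1 (adjusted 0.18). Peaks within 1000 nt of the gene start, counted after the values were seen, moved with this. They made up 2.02%, 2.45% and 2.72% of the editing-deficient and 3.32%, 7.76% and 9.66% of the Mavs-/- members, and they numbered 17, 34 and 38, and 28, 34 and 37. Without these peaks the genotypes differed by 2.48 points in position and by -3.32 points in first introns, still without overlap, and the members differed from the RNase-only peaks by -2.84 points in position and by 4.64 in first introns, each in the same direction in 6 of 6 pairs. Without editing-deficient replicate 1 as well, these were -2.41 and 5.04. In the Mavs-/- replicate 3 pair the median positions without near-start peaks were almost equal, at 43.03% for members and 43.06% for RNase-only peaks. Among the 2528 regions, 66 (2.61%) lay within 1000 nt of a start, among them 8 of the 73 regions found in all 6 libraries, 18 of the 288 found in Mavs-/- only and 11 of the 1452 found in editing-deficient libraries only.

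Most regions were not recurrent. Of the 2528, 1278 (50.6%) came from 1 library, 1177 from 2 to 5, and 73 (2.89%) from all 6, where 6.8% of all 4766 merged MDA5-protected regions of any kind came from all 6. Both genotypes shared 788 regions, 1452 were editing-deficient only and 288 Mavs-/- only. In 2 or 3 editing-deficient and no Mavs-/- libraries there were 435 regions (17.2%), beside 14.4% of the MDA5-protected regions of any kind. In 2 or 3 Mavs-/- and no editing-deficient libraries there were 27 (1.07%), beside 2.41%. The short intronic peaks are part of those backgrounds, and the libraries compared were of unequal size. Of the 435, 28 overlapped a Mavs-/- MDA5-protected peak of another kind and 407 (16.1% of the 2528) overlapped none of any length. Of the 27, 4 overlapped an editing-deficient MDA5-protected peak of another kind and 23 (0.91%) overlapped none. The backgrounds count peaks of every kind, so 16.1% and 0.91% are the shares to set beside 14.4% and 2.41%. The counts depended on single libraries. Without editing-deficient replicate 1, 2 or 3 the 435 became 286, 163 or 170 and the 27 became 49, 62 or 62, and without Mavs-/- replicate 1, 2 or 3 the 435 became 593, 472 or 477 and the 27 became 7, 7 or 16. When every list was cut to the same number of its strongest peaks, they were 156 and 62.

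**Figure D4:**
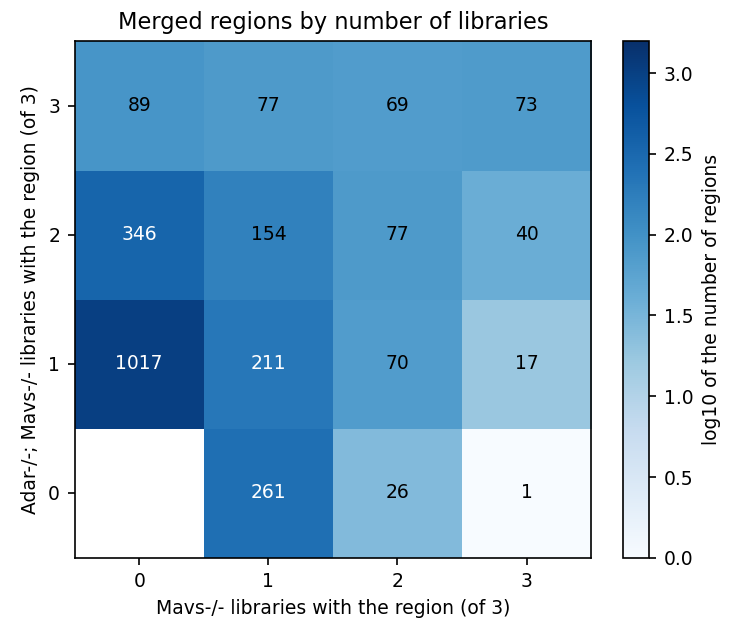
Number of merged short intronic regions (printed in each cell, colour on a log10 scale) by the number of Mavs-/- libraries (x axis, of 3) and of editing-deficient libraries (Adar-/-; Mavs-/-, y axis, of 3) in which a region has a peak. The cell of 1 editing-deficient and no Mavs-/- library holds 1017 regions, that of all 6 libraries 73, and that of 3 Mavs-/- and no editing-deficient libraries 1.

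The regions of all 6 libraries lay nearer the gene start than the whole set. Their median position was 33.7% of the gene, against 44.4% over all regions, 40.3% of them were in first introns, against 26.8%, and 11 of 73 lay within 200 nt of an exon, against 141 of 2528 (5.58%). The 27 regions of 2 or 3 Mavs-/- and no editing-deficient libraries had values close to these. Their median position was 33.2%, 38.5% of them were in first introns, and 4 of 27 lay within 200 nt of an exon. Since libraries were used to choose both sets, these values are descriptions. Among the regions of all 6 libraries, the 5 with the best mean rank of area lay in Kat6a, Dpyd, Ephb1, Ptprm and Stau2. The region in Kat6a, a histone acetyltransferase gene, was 172 nt long at chr8:22859730-22859901 in intron 1, with its middle 281 nt from the gene start. Its areas were 2246, 2097 and 1813 in editing-deficient and 1717, 1969 and 3064 in Mavs-/- replicates 1 to 3, within the strongest 10.1% of each library's peaks. It overlapped a peak in all 6 RNase-only and all 6 input libraries, so it stood out in every fraction. The region in Ptprm, a receptor tyrosine phosphatase gene, was 123 nt at chr17:67290509-67290631 and also had a peak in all 6 inputs. The other 3 had none in the inputs.

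Ephb1, which encodes a receptor for ephrin-B ligands, had a region of 122 nt at chr9:102335125-102335246, deep in an intron 1 of 130829 nt and 19035 nt from the nearest exon. Its areas were 1667, 1880 and 1856 in editing-deficient and 1035, 2676 and 2674 in Mavs-/- libraries, and it overlapped RNase-only peaks in 2 libraries of each genotype. In Dpyd a region of 575 nt at chr3:119208118-119208692 lay in intron 18, with RNase-only peaks in 2 editing-deficient and 1 Mavs-/- library. In Stau2, which encodes a double-stranded RNA-binding protein of RNA transport, a region of 429 nt at chr1:16421561-16421989 lay in intron 4 and had an RNase-only peak in all 6 libraries. Thus the strongest recurrent regions were protected without MDA5ΔCARD in 3 or more RNase-only libraries each.

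The 5 regions with the best mean rank among the 89 found in 3 editing-deficient and no Mavs-/- libraries lay in Sdc2, Nr0b2, 0610010F05Rik, Acbd3 and Enox2. They were chosen by this pattern, and no test is given for it. Nr0b2 encodes a nuclear receptor that represses bile acid synthesis, and its region of 388 nt at chr4:133555044-133555431 lay in its only intron, with areas of 1823, 1426 and 1013. All 6 RNase-only libraries had a peak there, those of Mavs-/- included. The region in 0610010F05Rik, 440 nt at chr11:23602759-23603198 in intron 11, had areas of 1226, 1115 and 1445, and that in Acbd3, a Golgi protein gene, 233 nt at chr1:180742393-180742625 in intron 5, had areas of 1121, 1073 and 1233. Neither had a peak in any RNase-only, input or Mavs-/- MDA5-protected library. Among the 5, only these were called in a single fraction of a single genotype. In Sdc2, which encodes a cell surface proteoglycan, the region of 793 nt at chr15:32953469-32954261 held a peak of 500 nt or more in 4 libraries, and all 3 Mavs-/- libraries had such a peak, so length alone placed it here. In Enox2 the region of 832 nt at chrX:49257744-49258575 had RNase-only peaks in 2 libraries of each genotype, and 1 Mavs-/- library had a peak of another kind.

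The opposite pattern, 3 Mavs-/- and no editing-deficient libraries, was held by 1 region. It lay in Morc3, which encodes an ATPase of nuclear bodies, at chr16:93832363-93832458, and was 96 nt long. It lay in intron 1, with its middle 290 nt from the gene start and its edge 14 nt from an exon. Its areas were 702, 676 and 787, near the middle of each library's ranks (mean rank 48.9%), and no RNase-only or input library had a peak there.

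The regions were unevenly spread over genes. Of the 1069 host genes, 622 (58.2%) had 1 region, 227 had 2, 187 had 3 to 9 and 33 had 10 or more. Those 33 genes held 613 regions (24.2%). Of 20515 protein-coding genes with an intron, 5.2% hosted a region, and the share rose with the length of the introns, from 0.528% of 7952 genes with less than 10 kb to 5.84% of 10321 with 10 to 100 kb and 18.8% of 2242 with 100 kb or more. Across the host genes, which are not independent replicates, the number of regions had a Spearman's rho of 0.274 with the summed intron length. Neighbouring regions of a gene were 1178 nt apart in the median, and 22.1% of the gaps were 200 nt or less. Short intronic peaks were found in 996 genes in editing-deficient and in 498 in Mavs-/- libraries, of which 425 were shared, 42.7% of the former and 85.3% of the latter, and 94 genes had them in all 6 libraries.

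Dpyd had the most regions. It encodes dihydropyrimidine dehydrogenase, which starts the breakdown of uracil and thymine in liver, and spans chr3:118562129-119432924 on the plus strand. Of its 70 regions, 23, 51 and 42 were present in editing-deficient and 28, 25 and 17 in Mavs-/- replicates 1 to 3, 37 were shared by the genotypes and 26 lay in intron 12. Sntg1, a syntrophin gene, had 42, with 9, 21 and 13 in editing-deficient and 23, 12 and 11 in Mavs-/- libraries, and the genotypes overlapped. Ube2e2, which encodes a ubiquitin-conjugating enzyme, had 32, and 29 of these lay in intron 3. Zeb1, a transcription factor gene of mesenchymal cells, had 23, of which 17 were shared and 1 was editing-deficient only. F8, the gene of coagulation factor VIII, had 19, of which 10 were shared.

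The next genes had most of their regions in editing-deficient libraries only, as did the whole set, with 57.4% editing-deficient only and 11.4% Mavs-/- only. Agmo encodes an enzyme that cleaves ether lipids, and 17 of its 25 regions were editing-deficient only, with 4, 16 and 14 regions in editing-deficient and 7, 3 and 2 in Mavs-/- libraries, which overlapped through editing-deficient replicate 1. Stau2 had 23 regions, 16 of them editing-deficient only. Abcb11, the gene of the bile salt export pump, had 21, of which 14 were editing-deficient only, 7 were shared and 0 were Mavs-/- only, with 4, 16 and 10 against 4, 3 and 3 by library. Outside the 10 genes with the most regions, and singled out after their values were seen, Gphn, which encodes gephyrin, had 13 of 14 regions in editing-deficient libraries only, and Rtl4, a gene derived from a retrotransposon, had 14 of 18 in Mavs-/- libraries only, with 14, 5 and 1 regions in Mavs-/- replicates 1 to 3. Some hosts had regions in 1 genotype only. All 10 regions of Mon2 were editing-deficient only, with 1, 7 and 7 by replicate. All 11 of Cyp2j5 and all 10 of Akr1c6 were Mavs-/- only, with 11, 2 and 0, and 8, 6 and 0. Slc22a27, a solute carrier gene, had 32 regions, 25 in intron 1, and Cyp2b9, a cytochrome P450 gene, had 20, the densest of the 10 at 56.5 per 100 kb of intron. Both belong to families of near-identical neighbouring genes, so reads may have been placed among the copies, and their counts are uncertain.

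**Figure D5:**
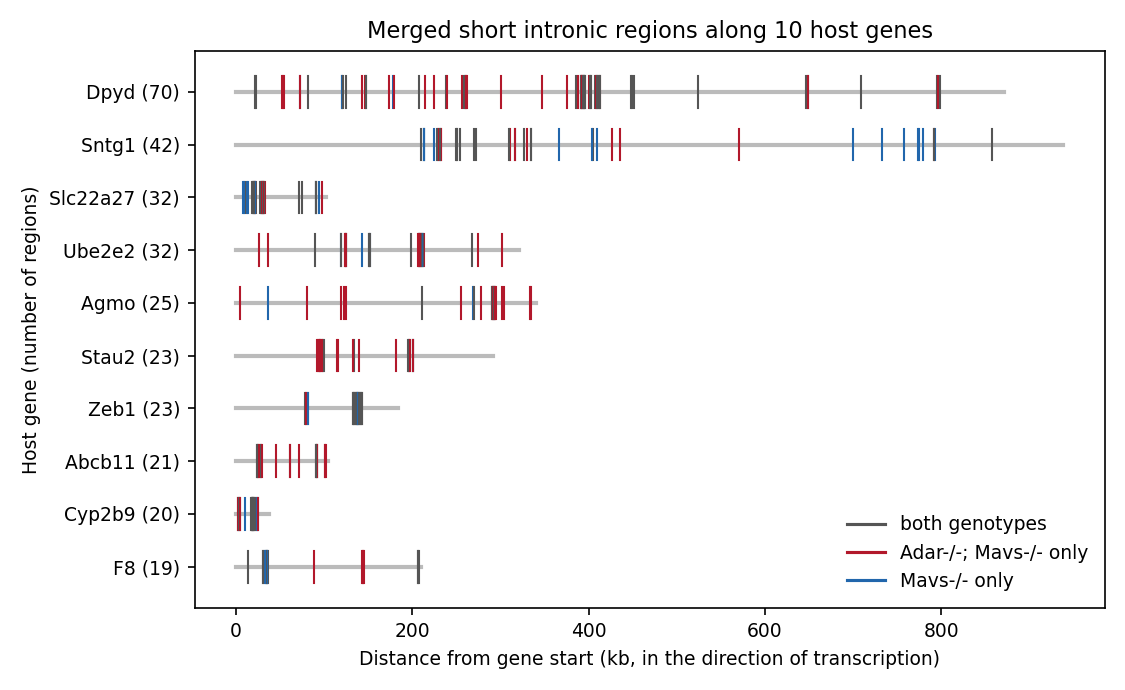
Merged short intronic regions (ticks) along the 10 host genes with the most regions (rows, with the number of regions), by distance from the gene start in kb in the direction of transcription (x axis), with grey lines for the length of each gene. Red ticks were found in editing-deficient (Adar-/-; Mavs-/-) libraries only, blue in Mavs-/- only and grey in both, and the 70 ticks of Dpyd, 26 of them in intron 12, spread over most of the gene while those of Slc22a27 and Cyp2b9 sit in short genes.

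Genes of liver metabolism and transport were among the hosts. The counts that follow stand beside the 5.2% of all protein-coding genes with an intron that were hosts, and since the groups differ in intron length they are descriptions only. Of 18 genes of bile acid, drug and solute transport, 7 hosted a region, and besides Abcb11 these were Slco1b2 with 6, Slc2a2 with 4, Abca6 with 3, and Abcb4, Abcc2 and Abca8a with 2 each. The 4 regions of Slc2a2, the glucose transporter of hepatocytes, were shared by the genotypes, and those of Abcb4 and Abcc2, which export phospholipid and conjugated anions into bile, were editing-deficient only. Of 18 genes of fatty acid oxidation and lipid regulation, 8 hosted a region. Cpt1a, which admits fatty acids to mitochondria, had 2, both editing-deficient only and neither in editing-deficient replicate 1. Ppara, the nuclear receptor that controls these genes, had 3, and Elovl5, a fatty acid elongase gene, had 2, both shared. Of the 8 hosts, 8 had regions in editing-deficient and 2 in Mavs-/- libraries, and of the 7 transport hosts 7 and 5, where 93.2% and 46.6% of all 1069 hosts did.

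Hormone receptors gave some of the richest hosts. Of 15 growth factor and hormone receptor genes, 6 were hosts. Thrb, the thyroid hormone receptor beta gene, had 18 regions with 7, 11 and 6 in editing-deficient and 11, 7 and 6 in Mavs-/- libraries. Ghr, the growth hormone receptor gene, had 16, with 2, 6 and 8 against 10, 12 and 6, so 2 of 3 Mavs-/- libraries exceeded every editing-deficient one. Lepr and Fgfr2 had 2 each, editing-deficient only. Of 22 nuclear receptor and liver transcription factor genes, 5 were hosts, among them Hnf4g with 7, Esr1 with 3, and Nr1h4, the bile acid receptor gene, and Onecut2 with 2 each. Of 17 urea cycle and amino acid enzyme genes, 4 were hosts, among them Glud1 with 2 regions and Cps1 and Ass1 with 1 each.

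Genes of plasma proteins and a list of long genes were hosts too. Of 25 plasma protein, coagulation and complement genes, 6 were hosts, among them Ahsg with 2 regions. Alb, with mRNA that fills the liver transcriptome, had 1 region. Of 22 listed long genes, only some of which are adhesion or synaptic genes, 9 were hosts. These included Fhit with 11 regions, Sgcz with 9, Immp2l with 7 and Lrp1b with 2. The summed introns of the 22 genes had a median of 1438770 nt, and 34 regions lay in them. None of the 22 listed genes of dsRNA sensing and interferon response hosted a region, although interferon-inducible genes outside the list did, such as Iigp1, Parp12, Nlrc5 and Trim30d with 2 each, named after their values were seen. Of 14 erythroid genes only Tfrc was a host, with 1 region.

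Distance to exons and the opposite strand describe the surroundings of the regions. The median distance to the nearest exon was 4445 nt, and 141 regions (5.58%) lay within 200 nt of one. Overlap with an MDA5-protected peak of 500 nt or more in some library was found for 356 regions (14.1%). A peak facing the member on the opposite strand of the same library was found for 4.40%, 2.30% and 1.36% of the editing-deficient and 1.78%, 2.05% and 4.96% of the Mavs-/- members, and the genotypes overlapped (exact permutation p = 0.7). The members faced one less often than the RNase-only peaks of the same kind in 6 of 6 pairs, with a mean difference of -15.3 ± 19.0 points (exact sign-flip permutation p = 0.03125, adjusted 0.03125, and 0.00216 without pairing). Without editing-deficient replicate 1 the difference was -7.62 points. Partners were sought among all peaks of the same library, and the RNase-only lists were longer. They held 3150 to 6094 peaks, against 1180 to 2868 in the MDA5-protected lists, and the part of list length in this difference was not tested.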

How the data were processed

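RNase-protected and total liver RNA was sequenced in 18 libraries, with genotype and fraction taken from the labels. Per the submitters' processing notes the authors used Trim Galore 0.6.6 and Genrich 0.6.1 on GRCm38. Genrich was run by strand with input of the genotype as control, adjusted P up to 0.01, an area of 500 or more and a gap of 20 bp. How a control was set for the input libraries is not given in the sources used here. The score deposited by the authors was taken as the peak's area, after their settings. The authors also deposited both P-values (raw and adjusted) as −log10, which were not compared between libraries, and summit offsets, which were not used. Each library has its own list, so no list pools replicates, and replicates were not joined or subtracted here, because the peaks were to be described by library. Multi-mapping reads were handled by the authors' aligner in a way not given in the sources used here, which bears on intronic repeats.

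Peaks were set against GENCODE M21 (the study used another release), with 1-based coordinates. Of the members, 58 lay in more than 1 gene and were assigned to the shortest. Genotypes (3 libraries each) were compared with exact permutation tests, two-sided, and fractions or lengths by exact sign-flip tests over 6 pairs of the same genotype and number, with Benjamini-Hochberg adjustment over 9 and 4 tests. The study calls its replicates biological. Genes were named by a rule: Adar and Mavs, the 10 hosts with the most regions, up to 5 regions by mean area rank in each pattern of libraries, members of lists with at least 2 regions, and peaks next to the limit. Some genes that met it are not reported here. The members and lists were chosen with earlier results of these data known. Alternatives were other length limits, areas, exon sets, merging, equal numbers of peaks and each replicate left out. The exclusion of peaks near gene starts was added after seeing the data. GC content of all regions, soft-masked repeats and inverted partners were not analysed here, as no genome sequence was used. Code was tested on simulated data. Python 3.11.15, numpy 2.4.6, scipy 1.17.1 and matplotlib 3.10.9 were used.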

Additional observations from a re-analysis of the deposited data

How the results depend on the processing

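Under the alternatives other than leaving out a replicate, 98 values kept their direction and their side of the threshold or stayed within 1.5 times, and the following did not. With an area of at least 1000, the genotype difference in peaks per host gene was -0.0949, that in opposite-strand partners 0.761, both of the other sign, the difference in RNase-only overlap between short and long peaks was -9.86, and 81 regions were in 2 or 3 editing-deficient and no Mavs-/- libraries and 16 the reverse. With equal numbers of peaks per library these were -0.129 for peaks per host gene and 156 and 62 regions. By the middle base the difference in RNase-only overlap was -4.26. The causes were not tested, except that fewer peaks enter under a stricter area or equal numbers. The 98 include settings that moved no difference. Letting a peak merely touch the gene body left every value as it was, and a replicate block changes p-values only.

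Leaving out 1 replicate moved the difference in peaks per host gene from -0.115 to 0.138 and that in opposite-strand partners from -1.10 to 0.773, and the region counts from 163 to 593 and from 7 to 62. The 4 differences within libraries lay from -27.5 to -22.2 for RNase-only overlap, -4.75 to -3.69 for position, 4.89 to 6.38 for first introns and -17.7 to -7.62 for opposite-strand partners, each with p = 0.0625 by the exact sign-flip permutation test, the smallest that 5 pairs can give.

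Without the replicate block, that is without pairing fractions or lengths by number, the differences of -23.7 in RNase-only overlap and -4.42 in position missed the threshold (exact permutation p = 0.0974 and 0.0606). Between genotypes, same-numbered libraries did not deviate together over 9 measures (r = -0.205, 0.642 and -0.502 for numbers 1 to 3), so the numbers were not taken to pair them. As a replicate block there, the number gave exact p-values from 0.25 to 1, and 0.25 is the smallest 3 pairs can give. Repeat masking, GC content, distance and identity settings for inverted partners were not run, for want of a genome sequence. With no read counts, a region without a peak in a library may lie under the limits on area and significance there, and the Mavs-/- lists were shorter.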
